A study of Caenorhabditis elegans with 2 samples.

Results

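The peaks described here are the CEH-48 binding regions of the nematode Caenorhabditis elegans that lie in repeated sequence away from gene starts. A peak belonged to this set when its summit, the base of highest signal, fell on a base that the NCBI WBcel235 (ce11) genome writes in lower case, which marks repeats and low-complexity sequence. The summit also had to lie outside every promoter window, which reached 1000 bp upstream and 200 bp downstream of a protein-coding 5′ end, and over 200 bp from any tRNA gene. Of the 1840 peaks in the deposited ce11 list of reproducible peaks (IDR peaks), 343 met this rule. No annotation of repeat families was used here, so repeats are described by their sequence and are not named. The set with which they are compared is the 438 IDR peaks that meet the same position rule but whose summit base is not marked as a repeat.

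The experiment was chromatin immunoprecipitation with sequencing (ChIP-seq) on whole late embryos of mixed sex, collected 3.5 hours after synchronization by egg bleaching. There was 1 group with 2 biological replicates of strain OP631, whose genotype is unc-119(tm4063) III; wgIs631 and which makes CEH-48 with a C-terminal GFP-FLAG tag. Of the labels, the description says that anti-GFP was the antibody and the antibody tag says ceh-48. No untagged strain or second condition was analysed here, the numbers of reads are not known, and binding in whole embryos is not resolved by cell type.

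CEH-48 is a transcription factor of the ONECUT family, whose members carry a cut domain next to a homeodomain and use both to bind DNA. Cut homeodomain proteins bind the core sequence ATCGAT, which reads the same on both strands, and its variant ATTGAT. In C. elegans, ONECUT genes are known for their part in the expression of genes that all neurons use. Tandem repeats are stretches in which a short unit is copied head to tail, and in C. elegans they are most frequent on the arms of the autosomes.

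6 of the strongest repeat peaks outside promoters are shown as sequence, because their layout is the main feature of the set. The first 4 are arrays in which ATCGAT recurs at short, regular steps in AT-rich sequence, the fifth has a single copy, and the last has ATTGAT (read as ATCAAT on this strand) in its place. Each line gives 200 bases of the WBcel235 genome around the summit and, in capitals, every copy of the ATCGAT core or its variant. Here, near a gene means only that its 5′ end is the nearest protein-coding one. It lay 10841 bp away for clp-4, 4880 bp for xol-1 and 4008 bp for W02H3.3.
Array near clp-4, chrIII:1807382-1807581, plus strand: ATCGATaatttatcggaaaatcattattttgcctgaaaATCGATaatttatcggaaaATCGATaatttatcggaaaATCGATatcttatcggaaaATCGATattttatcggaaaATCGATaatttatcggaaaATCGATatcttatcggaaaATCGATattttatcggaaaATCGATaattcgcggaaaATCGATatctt
Array in an intron of mac-1, chrII:13315738-13315937, plus strand: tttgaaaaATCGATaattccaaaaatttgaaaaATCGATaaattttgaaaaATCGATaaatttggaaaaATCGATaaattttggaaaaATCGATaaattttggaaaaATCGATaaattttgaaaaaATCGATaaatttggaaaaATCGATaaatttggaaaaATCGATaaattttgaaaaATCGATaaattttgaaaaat
Array in an intron of smi-1, chrIII:1879002-1879201, plus strand: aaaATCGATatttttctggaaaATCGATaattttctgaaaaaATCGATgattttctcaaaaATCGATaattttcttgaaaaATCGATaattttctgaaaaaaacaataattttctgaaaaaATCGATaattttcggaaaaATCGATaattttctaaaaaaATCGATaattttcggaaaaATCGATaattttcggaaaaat
Array in an intron of Y54F10BM.3, chrIII:2282349-2282548, plus strand: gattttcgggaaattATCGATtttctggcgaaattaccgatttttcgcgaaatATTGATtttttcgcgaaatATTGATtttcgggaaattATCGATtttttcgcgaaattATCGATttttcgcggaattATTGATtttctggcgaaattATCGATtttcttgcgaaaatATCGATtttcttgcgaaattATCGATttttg
Single copy near xol-1, chrX:8036333-8036532, plus strand: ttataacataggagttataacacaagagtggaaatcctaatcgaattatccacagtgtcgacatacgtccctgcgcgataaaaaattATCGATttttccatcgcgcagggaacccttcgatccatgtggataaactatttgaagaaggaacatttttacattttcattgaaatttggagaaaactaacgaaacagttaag
No ATCGAT, near W02H3.3, chrX:11094078-11094277, plus strand: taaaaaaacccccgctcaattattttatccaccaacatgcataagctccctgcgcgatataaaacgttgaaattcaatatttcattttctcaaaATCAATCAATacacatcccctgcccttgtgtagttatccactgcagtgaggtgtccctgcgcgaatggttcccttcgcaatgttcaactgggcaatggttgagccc

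The clp-4 array holds 10 copies of ATCGAT in these 200 bases, the mac-1 array 10, the smi-1 array 9 and the Y54F10BM.3 array 6. In the last of these, 3 units with ATTGAT stand among the units with ATCGAT. The clp-4 sequence is part of a longer run of 26 copies over 558 bp, the mac-1 sequence of 16 copies over 384 bp, and the smi-1 sequence of 12 copies over 241 bp. A run here means a chain of ATCGAT copies with gaps of at most 50 bp.

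The strongest repeat peak outside promoters, in the H05C05.1 gene at its 3′ UTR, ran on chromosome III from 2960590 to 2961314, and ranked 6th of all IDR peaks. Its pooled signal was 788, with 262 in replicate 1, where it ranked 2nd, and 521 in replicate 2, where it ranked 9th. Its summit had 9 ATCGAT copies within 100 bp, in a run of 25 copies over 572 bp. Signal is the authors' deposited value per region, on a scale that no source used here gives, and it is compared within a list. The exception is a difference between the replicate lists, given only to set repeat peaks beside the others.

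The next 3 peaks by signal differed in layout. The peak near W02H3.3 on chromosome X (11093998 to 11094364) had signal 747, with 190 in replicate 1 and 561 in replicate 2, and no ATCGAT. The peak in an intron of dys-1, which encodes dystrophin, on chromosome I (11533564 to 11534159) had signal 718, with 203 and 519 in replicates 1 and 2, and 9 copies of ATCGAT. The peak near xol-1, the X-linked switch gene of sex determination, on chromosome X (8036262 to 8036594), had signal 668, with 186 and 480 in the replicates. All 4 of these peaks stood among the 15 highest in replicate 1 and among the 19 highest in replicate 2.

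Of the other 8 peaks among the 12 strongest, 6 were arrays with 4 to 10 copies within 100 bp of the summit and 2 had 1 copy or none. 1 array was intergenic (signal 582), and its nearest protein-coding 5′ end, 10841 bp away, was that of clp-4, a calpain protease gene. A weaker peak less than 10000 bp from it lay in an intron of rimb-1 (signal 120). The other arrays lay in introns of mac-1, an AAA ATPase gene (503), smi-1 (491), Y54F10BM.3 (488), dyf-19, a gene of the base of cilia (479), and Y48G9A.11 (470). The peak near zer-1 (589) had 1 copy and the peak near F58D5.5 (548) had none. Signals over all 343 peaks ran from 85.2 to 788, with a median of 131 and quartiles of 105 and 201. The lowest 4 lay between 85.2 and 85.9.

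In the pooled list, repeat peaks outside promoters had a lower median signal than the other peaks outside promoters (131 against 145). Replicate 2 had the same direction (88.8 against 107.7) and replicate 1 the opposite one (46.2 against 42.3), and the difference was not tested. Of the 343, 70 (20.4%) were among the 460 strongest IDR peaks, against 129 of the 438 peaks outside repeats (29.5%).

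How the share of summits in such repeats compares with bases depended on whether promoters were counted. Over the whole genome 18.6% of summits and 28.4% of nuclear bases met the rule (0.656-fold, 95% exact interval of the share 16.9 to 20.5%, two-sided exact binomial p = 3.48e-22), but the rule leaves out promoter windows, where 914 of the 1840 summits lay. Among the 781 summits outside promoters and away from tRNA genes, 43.9% were at a repeat base (95% exact interval 40.4 to 47.5%), against 36.3% of such bases, which is the opposite direction (1.21-fold, two-sided exact binomial p = 1.30e-05). With pooled regions under the IDR threshold as the background for the whole rule, the ratio was 0.831 (two-sided Fisher's exact p = 0.00013). Peaks that share a locus or a repeat are not fully independent, so p-values across peaks are too small, and variation between batches of embryos is outside what they measure.

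ATCGAT was in the 100 bp centred on the summit of 268 of the 343 repeat peaks (78.1%, 95% exact interval 73.4 to 82.4%). The windows centred 500 bp to the left and right held it in 169 of 686 cases (24.6%; odds ratio 10.9, two-sided Fisher's exact p = 1.05e-61). Among the peaks outside repeats it was in 182 of 438 (41.6%, odds ratio 5.03, two-sided Fisher's exact p = 2.00e-25). This contrast is partly fixed by the soft-mask, which draws arrays into the repeat set, so its p-value is no measure of a preference. Where the flanking windows were limited to those centred on a repeat base, 32.7% held ATCGAT (odds ratio 7.36, two-sided Fisher's exact p = 6.63e-35). With C or T at the third base, counting both ATCGAT and ATTGAT, 319 of 343 (93.0%) held the core, against 36.6% of flanks and 61.4% of peaks outside repeats.

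**Figure D1:**
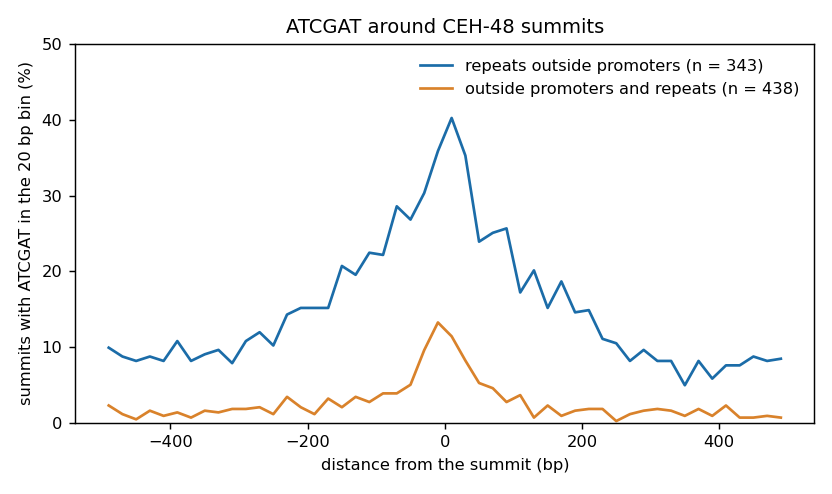
Share of summits with an ATCGAT copy in each 20 bp bin (vertical axis, %) by distance from the summit in bp (horizontal axis), for 343 peaks in repeats outside promoters and 438 peaks outside promoters and repeats. The share at repeat peaks reached 40.2% beside the summit and was still 8.45% in the last bin to the right, while at the other peaks it reached 13.2% and ended at 0.685%.

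The plot of ATCGAT around summits showed a high centre with broad shoulders at repeat peaks. At 190 bp to the left of the summit, 15.2% of repeat peaks had a copy in the bin, more than the 13.2% that the peaks outside repeats reached at their highest. For the repeat peaks with a copy within 100 bp, the nearest one lay a median of 11 bp from the summit. For the peaks outside repeats with such a copy the median was 20 bp. However, 50.4% of repeat peaks had 3 or more copies within 100 bp, against 4.79% of the peaks outside repeats. Where copies are many, any base lies near one, so these medians do not show how closely summits are centred on a copy.

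In a scan of all 2080 6-mers with strands collapsed, 30 were more frequent at repeat summits than in the flanks (1.44%) and 21 were less frequent (1.01%), by Fisher's exact test with Benjamini-Hochberg adjustment at 0.05. ATCGAT had the smallest p (adjusted Fisher's exact p = 2.19e-58). Next came TATCGA (75.5% of windows at summits, 23.8% of those in flanks), CGATAA (68.8% against 18.8%), AATCGA (80.8% against 31.8%) and AAATCG (78.4% against 36.7%). All 4 overlap the core, and together they extend it by AA on each side. Flanks are partly outside repeats, and with repeat flanks alone 17 6-mers were more frequent.

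The bases next to the core were more uniform at repeat peaks than elsewhere. Of 570 ATCGAT copies in the summit windows of repeat peaks, 411 (72.1%) stood in AAATCGATAA, which reads TTATCGATTT on the other strand. The same context made up 30.8% of 211 copies at peaks outside repeats and promoters, 30.5% of 417 copies at promoter peaks, and 33.8% of the 12364 copies in all repeat sequence that meets the position rule. The next context, AAATCGATAT, made up 10.2% at repeat peaks and 10.2% in all such repeats. Many of these copies are units of related arrays, so they do not count as separate observations of a preference.

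Copies came in clusters at the repeat peaks. Within 100 bp of the summit, 173 of 343 peaks (50.4%, 95% exact interval 45.0 to 55.9%) had 3 or more copies of ATCGAT, 115 had 1 or 2, and 55 had none. The highest count was 10, reached by 5 peaks. Among the 438 peaks outside repeats, 21 (4.79%) had 3 or more, and among 914 promoter peaks 28 (3.06%). The limit of 3 copies was chosen after the counts were seen, so these shares are a description. The gap to peaks outside repeats is also partly fixed by the soft-mask, which draws arrays into the repeat set.

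Neighbouring copies at repeat peaks stood 19 or 20 bp apart more often than at any other distance up to 60 bp. Of 724 neighbouring pairs, 130 were 19 bp apart and 111 were 20 bp apart, together 33.3%. A second, lower group stood at 38 to 41 bp, or about 2 such steps, with 21 to 24 pairs at each distance. At peaks outside repeats, 18.4% of 87 pairs were 19 or 20 bp apart, at promoter peaks 25.4% of 126, and in all repeat sequence meeting the rule 15.4% of 3522 pairs. Pairs at peaks had to fit in the 200 bp around a summit, which favours short distances. The pairs in all repeat sequence were limited to distances that fit in 200 bp. They did not have to fit in a window placed at a summit, so that share is not a like comparison.

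**Figure D2:**
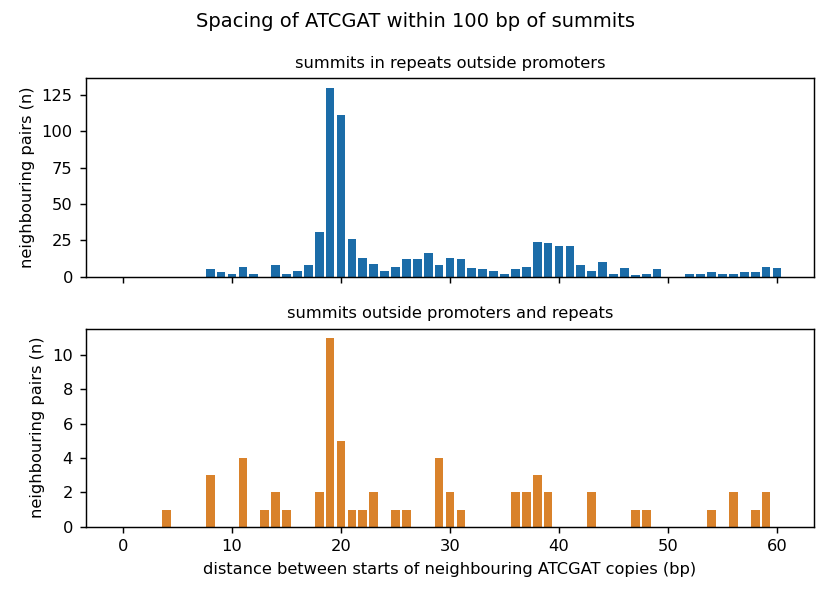
Number of neighbouring pairs of ATCGAT copies (vertical axes, each panel with its own scale) by the distance between their starts in bp (horizontal axis), within 100 bp of the summits of peaks in repeats outside promoters (top) and of peaks outside promoters and repeats (bottom). In the top panel the bars at 19 bp (130 pairs) and 20 bp (111 pairs) are the tallest, with a lower group at 38 to 41 bp.

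Peaks with 3 or more copies were AT-rich. Their 200 bp around the summit had a median GC content of 25%, against 33% with 1 or 2 copies, 40.5% with none, and 47% at the peaks outside repeats. They were also less unique in the genome: at 67.1% of them at least 90% of the 36-mers within 100 bp occurred once in the genome, against 86.1% of peaks with 1 or 2 copies and 97.7% of peaks outside repeats. Both contrasts with peaks outside repeats are partly fixed by the soft-mask. How reads that match several places were assigned is not given in the sources used here. Its part in the signal of arrays was not tested. The 116 peaks with 3 or more copies that passed that limit had a median signal of 137 and a median of 4 copies, and the other 57 had 174 and 6 copies. Among all 255 repeat peaks passing it, ATCGAT was in 79.2% of summit windows and in 21.4% of their flanks (odds ratio 14.02, two-sided Fisher's exact p = 2.03e-54).

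Among repeat peaks with at least 2 copies, the median signal was higher where there were more copies. The median was 118 with 1 copy (69 peaks), 110 with 2 (46), 127 with 3 or 4 (87), 147 with 5 or 6 (49) and 219 with 7 or more (37). The same order from 2 copies up was seen in replicate 1 alone, with medians of 38.5, 46.2, 60.5 and 69.98, and in replicate 2 alone, with 71.2, 83.9, 117 and 172. Quartile ranges overlapped between neighbouring classes, for instance 105 to 170 with 3 or 4 copies and 120 to 255 with 5 or 6. Across the 288 peaks with at least 1 copy, the number of copies and the pooled signal had a Spearman's rho of 0.393. Across all 343 repeat peaks it was 0.222. Both are given as a description, since peaks share libraries and arrays share sequence. Peaks with no copy stood outside this order in the pooled list, with a median of 154. Their median was 109 in replicate 2 but 42.1 in replicate 1, where peaks with 1 copy had 41.1. Outside repeats, only 21 peaks had 3 or more copies, with a median of 3 copies, and they were not split further. An order from 2 copies up was therefore not examined there. The median signal of these 21 was 122, against 154 with 1 or 2 copies (192 peaks) and 142 with none (225). For the 3 classes in turn, median ranks were 861.5, 844 and 983 in replicate 1 and 1440, 816 and 874 in replicate 2.

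A search of the whole genome asked the reverse question, which ATCGAT runs held a summit. In repeat sequence outside promoters there were 10070 runs, counting single copies as runs, and 450 of them (4.47%) had an IDR summit within 100 bp. The share was 2.39% of 9126 single copies, 12.5% of 586 runs of 2 copies, 32.8% of 244 runs of 3 or 4, and 63.6% of 77 runs of 5 to 9. It was 80% of 25 runs of 10 to 19 copies and 83.3% of 12 runs of 20 or more (95% exact interval 51.6 to 97.9%). In the top 1840 regions of replicate 1 the share went from 2.97% of single copies to 80% of runs of 10 to 19 copies, and in those of replicate 2 from 1.96% to 80%. In both replicates it was 75% for the 12 runs of 20 or more.

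**Figure D3:**
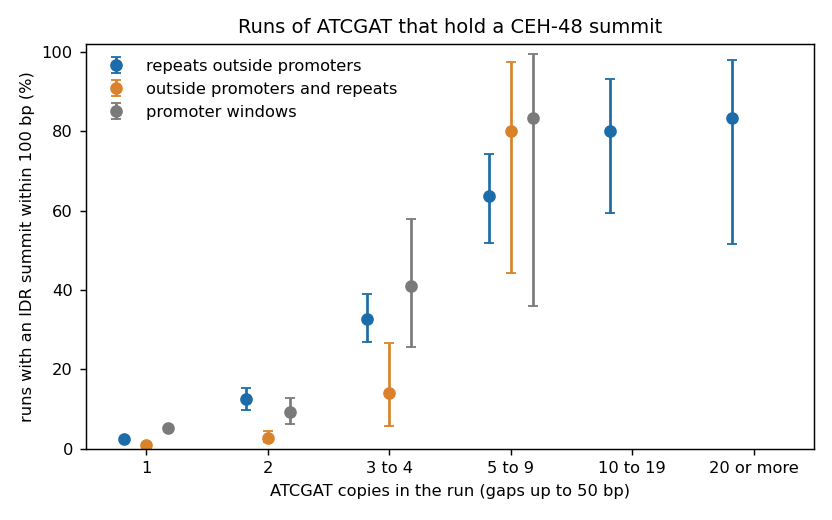
Share of ATCGAT runs with an IDR summit within 100 bp (vertical axis, %; bars are 95% exact binomial intervals) by number of copies in the run (horizontal axis), for runs in repeats outside promoters, runs outside promoters and repeats, and runs in promoter windows; classes with under 5 runs are left out. In repeats outside promoters the share climbs from 2.39% of single copies to 83.3% of runs of 20 or more.

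Longer runs also offer more bases for a summit to fall in, so the density of summits was computed as well. Counting 100 bp on each side, single copies in repeats had 0.0968 summits per kb, runs of 2 had 0.479, runs of 3 or 4 had 1.12, runs of 5 to 9 had 1.85, runs of 10 to 19 had 2.07 and runs of 20 or more had 1.47. The 343 repeat peaks alone gave a mean of 0.0120 per kb over all bases that meet the rule. The run densities count IDR summits of any class within 100 bp of a run, so the 2 measures differ. Density therefore climbed up to 10 to 19 copies and was lower in the longest class.

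Runs outside repeats followed a like order with far fewer members. In promoter windows 5.16% of 7652 single copies, 41.0% of 39 runs of 3 or 4 and 5 of 6 runs of 5 to 9 had a summit. Outside promoters and repeats the values were 0.964% of 15454, 14% of 50 and 8 of 10. Most long runs are in repeat sequence away from promoters: 358 of the 467 runs of 3 or more copies in the genome (76.7%) and 37 of the 40 runs of 10 or more (92.5%). Differences between these places at a given number of copies were not tested.

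Length alone did not order the signals of the longest runs. The longest, 53 copies over 1690 bp in fnip-2 on chromosome IV, had 2 IDR summits but a best pooled signal of 97.7. The 39 copies in pro-3 on chromosome V had a best signal of 169, and the 37 copies in B0524.5 on chromosome III had 251. Of the 12 runs with 20 or more copies, 2 had no IDR summit. These were 25 copies in Y69A2AR.16 on chromosome IV, whose best pooled region had signal 84.1 at rank 1871, just below the IDR set, and 20 copies in twk-46, a potassium channel gene on chromosome V, with signal 34.8 at rank 10551.

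Arrays thinned out sharply below the IDR threshold while repeats as such did not. Among pooled regions meeting the position rule, 62.9% of those ranked 1 to 460 had 3 or more ATCGAT copies, 61.3% at ranks 461 to 920 and 41.5% at 921 to 1840. Below the threshold the share was 14.8% at ranks 1841 to 3680 and 5.03% at 3681 to 7360. It was 0.846% at 7361 to 14720 and 0.647% at 14721 to 30000. Over the same bins, the share of all regions that met the rule went from 15.2 to 20.98% above the threshold and lay between 20.9 and 23.3% below it.

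By sequence, most repeat peaks outside promoters stood alone, but 118 formed a single group. Groups were built by linking peaks whose 200 bp aligned over at least 80 bp at 80% identity or more. This gave 212 groups, of which 203 held 1 peak, 7 held 2, 1 held 8 and 1 held 118. The group of 118 lay on all 6 nuclear chromosomes, with 37 on chromosome I, 30 on III, 29 on V, 19 on IV, 2 on II and 1 on X. Its median was 5 copies of ATCGAT, 89 of its peaks had 3 or more, and its strongest member was the H05C05.1 peak. At 90% identity the largest group held 23 peaks.

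The group of 8 had 7 peaks inside eme-1, which encodes a subunit of a DNA structure-specific nuclease, on chromosome I, and 1 in fnip-2 on chromosome IV (signal 310, the strongest of the 8). Of the 7 pairs, 2 had no ATCGAT within 100 bp of either summit. They were a pair on chromosomes I and III with signals of 216 and 220, and a pair on chromosome V with 165 and 354. With 1 peak kept per group, ATCGAT was in 73.1% of 212 summit windows against 19.1% of flanks (odds ratio 11.5, two-sided Fisher's exact p = 1.86e-40).

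The peaks of the 2 larger groups were aligned to the whole genome, which gave 253 copies, these peaks included. An IDR summit lay within 50 bp of 126 of them (49.8%), and 100 of those 126 hold the peaks that served as queries. ATCGAT was in 124 of the 126 copies with a summit (98.4%) and in 94 of the 127 without (74.0%). No test is given, since the copies were collected with the peaks themselves and the copies without a summit were mostly short alignments, with a median of 96 bp against 306 bp. Per kb the copies with a summit had 21.7 ATCGAT and the others 15.99.

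Of the repeat peaks outside promoters, 159 stood alone and 184 had another within 10000 bp. Peaks are counted by summit, and 11 of the summits share the same called interval with another. Some further intervals overlap, as in eme-1, so peaks of 1 locus are not all separate regions. Joining peaks up to 10000 bp apart gave 220 loci, of which 61 had several peaks. The most crowded, on chromosome V from 19099653 to 19132148, had 11 peaks around pro-3 and zhp-4, a meiotic RING finger gene, with a highest signal of 221. The eme-1 locus on chromosome I (624817 to 627979) had 7, all in introns, with signals from 111 to 278. The dys-1 locus on chromosome I (11526107 to 11534050) had 6, of which 5 lay inside dys-1.

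On the autosomes, these peaks lay mainly on the arms. The middle 50% of each autosome held 29 of 326 autosomal repeat peaks (8.90%, 95% exact interval 6.04 to 12.5%), against 38.3% of the autosomal bases that meet the rule (0.232-fold, two-sided exact binomial p = 1.85e-33). The ratio was 0.383 with sub-threshold regions as the background, of which 23.2% were there (two-sided Fisher's exact p = 5.23e-11). It was 0.108 where at least 50% of the 100 bp window had to be soft-masked and 0.146 among the 920 strongest peaks. Of the peaks with 3 or more copies 1 of 171 was there, and of the others 28 of 155 (18.1%). The runs of 3 or more copies were as rare in the middle themselves, with 5 of 342 (1.46%). The peaks outside repeats had 46.3% in the middle.

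Chromosomes I and III held over their share of the bases and the other 4 chromosomes under it. Chromosome I held 103 repeat peaks (30.03%, against 16.7% of the bases that meet the rule), III held 88 (25.7% against 15.7%), V 54 (15.7% against 18.7%), IV 47 (13.7% against 18.96%), II 34 (9.91% against 14.2%) and X 17 (4.96% against 15.7%). Regions of the pooled list that meet the rule but missed the IDR threshold also leaned this way, with 21.9% on I, 23.002% on III and 8.78% on X. Runs of 3 or more copies had the same order at both ends, with 116 on I, 89 on III and 16 on X. Of the 17 peaks on X, 2 had 3 or more copies. The shares of chromosomes were not tested.

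**Figure D4:**
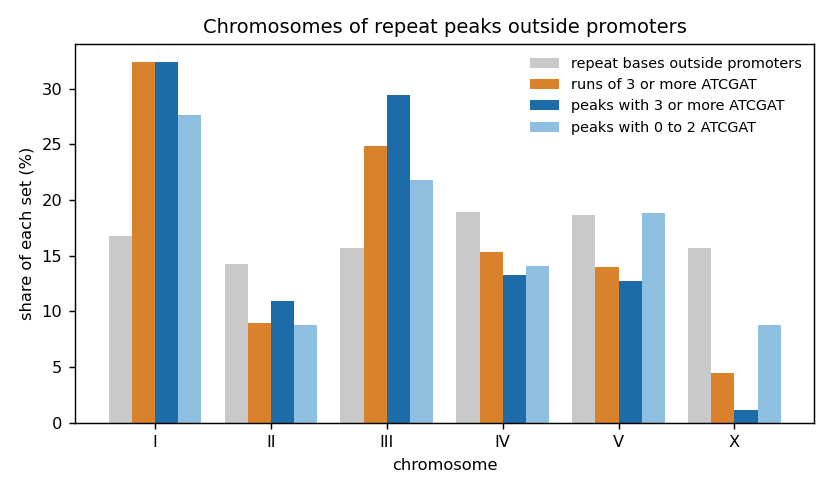
Share of each set on each chromosome (bars, %): bases that meet the position rule, runs of 3 or more ATCGAT copies in such sequence, repeat peaks with 3 or more copies within 100 bp of the summit, and repeat peaks with 0 to 2 copies. Chromosome X has 15.7% of the bases, 4.47% of the runs, 1.16% of the peaks with 3 or more copies and 8.82% of the others.

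Most of the repeat peaks outside promoters were in introns. Introns held 245 of 343 summits (71.4%), while 55.0% of the bases that meet the rule are intronic, and intergenic sequence held 63 (18.4% against 35.4%). A further 22 lay in 3′ UTRs, 11 in coding exons and 2 in 5′ UTRs. Of the 173 peaks with 3 or more copies 143 were intronic. The median summit was 2778 bp from the nearest protein-coding 5′ end, against 2026 bp for the peaks outside repeats.

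In all, 198 protein-coding genes had such a peak inside them (0.991% of 19973), and 253 had the 5′ end nearest to one (1.27%). The gene with most was eme-1 with 7, followed by dys-1, the plexin receptor gene plx-1, Y25C1A.7 and Y48G1A.1 with 5 each. These are counts of summits. The dys-1 peaks had signals of 91.5, 91.9, 174, 296 and 718, and those of 91.5 and 718 are summits of the same called interval. The gene dyb-1, which encodes the dystrobrevin of the same complex, had 2 in introns, with 262 and 384. The plx-1 peaks ran from 99.2 to 346. Genes that host such peaks differ in length and in repeat content, and the part of both was not tested.

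Of 49 genes listed as used by nearly all neurons, 3 hosted a repeat peak outside promoters (6.12%), beside the 0.991% of all protein-coding genes. They were unc-51, a kinase gene of axon outgrowth, with signal 99.8 (36.1 in replicate 1 and 63.4 in replicate 2); unc-76, an axon bundling gene; and unc-108, which encodes a Rab2 GTPase of dense-core vesicle maturation. The 2 peaks in unc-76 had signals of 124 (25.3 and 90.3) and 162 (46.7 and 116), and the unc-108 peak had 233 (46.3 and 187). None of these 4 peaks was an array, with 0 to 2 copies of ATCGAT within 100 bp. An intergenic peak lay 2424 bp from the 5′ end of cpx-1, a complexin gene of synaptic vesicle release, with signal 151 (29.5 and 120) and 1 copy.

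ATTGAT was frequent at repeat peaks with and without ATCGAT. Of the 55 repeat peaks without ATCGAT within 100 bp, 35 had it in the 100 bp window (63.6%), against 15 of 110 flanking windows (13.6%), and at 76 of 225 such peaks outside repeats (33.8%). It was also at 51.3% of repeat peaks with 1 or 2 copies of ATCGAT and at 50.3% of those with 3 or more. Among those without ATCGAT, the strongest after the W02H3.3 peak were the one near F58D5.5 on chromosome I, with signal 548 (137 in replicate 1 and 411 in replicate 2), and one near bath-10 on chromosome II, with 423 (142 and 282). An intronic dys-1 peak of signal 296 had 6 copies of ATTGAT and one in Y43F8C.6 on chromosome V, of signal 298, had 8.

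The share of peaks found in both replicates did not pass the test for a difference between repeat peaks and the others. The top 1840 regions of both replicates held a summit at most 100 bp away for 238 of the 343 (69.4%), against 289 of 438 outside repeats (66.0%; odds ratio 1.17, two-sided Fisher's exact p = 0.318). The 95% exact intervals of these shares, 64.2 to 74.2% and 61.3 to 70.4%, overlap. The direction turned among the 920 strongest peaks (odds ratio 0.437, two-sided Fisher's exact p = 0.0726) and with unique 36-mers (0.996). The replicates differed in direction: the top regions of replicate 1 held 281 repeat peaks (81.9%) against 323 of the 438 others (73.7%), and those of replicate 2 held 292 (85.1%) against 394 (89.95%). Neither held 8 of the repeat peaks.

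The replicates differed in how strongly they ranked the repeat peaks. The median rank was 765 in replicate 1 and 1130 in replicate 2, while for the peaks outside repeats it was 893 and 866. Deposited values in replicate 2 were higher by 1.09 ± 0.56 log2 units at 317 repeat peaks found in both lists (SD over peaks), and by 1.54 ± 0.56 at 408 peaks outside repeats. The lists need not share a scale, so neither value is a difference in binding, and only the 2 sets are compared. The repeat peaks therefore stood lower in replicate 2 relative to other peaks, by values that rest on 1 library each and were not tested. Across the 317 peaks the signals of the replicates had a Spearman's rho of 0.675, given as a description.

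**Figure D5:**
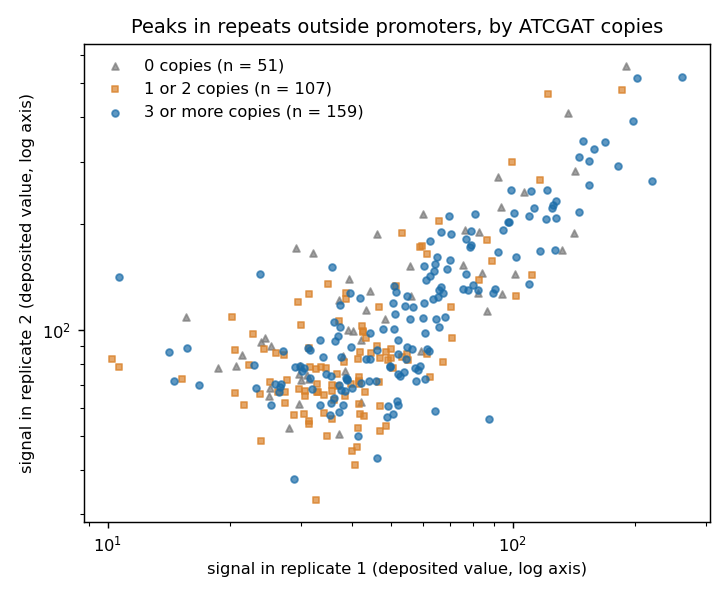
Deposited signal in replicate 2 (vertical log axis) against replicate 1 (horizontal log axis) for the 317 repeat peaks outside promoters with a summit within 100 bp in both lists, by number of ATCGAT copies within 100 bp of the summit. Peaks of all 3 classes reach the upper right, where the highest replicate 1 signal is 262.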

How the data were processed

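CEH-48 ChIP-seq regions from 2 biological replicates, 1 group, were taken as deposited, per the labels, in ce11 coordinates, with replicate numbers from the labels. The signal of each region and the summit offset are the authors' deposited values from their peak caller, whose name, like the aligner, is not given in the sources used here. Per the deposited read-me files, regions were called on each replicate and on both pooled, and IDR peaks were derived from these. The IDR peaks are the 1840 pooled regions of highest signal. Read depth is not known, so intervals are for the counting of peaks alone.

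Summits were placed on WBcel235 with Ensembl release 115 genes, with UTRs and coding exons taking precedence over introns. ATCGAT and other 6-mers were searched on both strands in 100 bp around summits and in flanks 500 bp away, where each copy of ATCGAT is the same site on both strands. Copies were counted in 200 bp around the summit. Sequences were grouped with blastn 2.17.0. Tests were two-sided exact binomial or Fisher's exact tests, tried first on simulated data. Alternatives were the 920 peaks of highest signal, each replicate alone, other windows, flanks and promoter limits, stricter repeat and uniqueness rules, ATYGAT (Y is C or T), and sub-threshold regions as background. The members, the gene list and the tests were chosen with earlier results of these data known. Alternatives for copy numbers, for run limits, for a background without promoters and for 6-mers with repeat flanks were chosen after seeing the data. The genes named are those of the 12 strongest peaks, of the largest groups and of the neuronal list, and others (hosts of several peaks, the longest runs, peaks without ATCGAT) were named after their values were seen. Analyses used Python 3.11.15, numpy 2.4.6, pandas 2.3.3, scipy 1.17.1, networkx 3.6.1 and matplotlib 3.10.9.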

Additional observations from a re-analysis of the deposited data

How the results depend on the processing

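ATCGAT against flanks (odds ratio 7.36 to 23.04) and against peaks outside repeats (3.52 to 8.35), and the scarcity in the middle of autosomes (0.108 to 0.383-fold) kept their direction and stayed past 0.05 under every alternative run for them, each replicate alone included. The share of summits meeting the rule was 0.573 to 0.831-fold under the alternatives that keep promoters in the background and turned to 1.21-fold without them, since the rule leaves out promoter windows. No test of ATCGAT in genome copies with and without a summit is reported, because most copies with a summit hold the peaks used to find them. The comparison of peaks found in both replicates turned direction, without passing 0.05, with the 920 strongest peaks (odds ratio 0.437, 91.3% against 96.0%, two-sided Fisher's exact p = 0.0726) and with unique 36-mers (0.996); the cause was not tested. The count of 6-mers more frequent at summits was 18 with the 920 strongest peaks and 17 with repeat flanks only. The count of less frequent 6-mers was 21 as reported and 4 with the 920 strongest peaks, 61 with a window at least 50% soft-masked, 157 in 200 bp windows, 48 with flanks at 1000 bp, 1 with 1 peak per group, 4 with unique 36-mers and 33 to 42 with either replicate left out, so that count rests on the settings. The share of arrays was 62% among the 920 strongest peaks, 63.8% for 2 or more copies, 35.9% for 4 or more and 41.7 to 50% in the top regions of a single replicate. Runs of 10 or more copies held a summit in 78.4 to 90% under other gaps and distances. Of the 343 peaks, 64 had under 50% of the 100 bp window soft-masked and 12 lay within 100 bp of the edge of a promoter window. No paired analysis was possible because there is 1 group only. Unknown depth limits what can be said of regions without a peak. Every comparison with peaks outside repeats is bound to the soft-mask that split the 2 sets.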

Other observations

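On chromosome X, the 2 strongest repeat peaks outside promoters, near W02H3.3 and xol-1, share the sequence CGCGCAGGG, or CCCTGCGCG on the other strand, in the bases shown for them. The sequence is part of the motif known from the elements that recruit the dosage compensation complex to X in C. elegans. It was searched on both strands within 100 bp of every IDR summit after these sequences were seen, so no test is given. It was found at 2 of 17 repeat peaks outside promoters on X and at 0 of 326 on autosomes. Among peaks outside promoters and repeats it was at 7 of 82 on X (8.54%) and at 0 of 356 on autosomes. Over all IDR peaks it was at 12 of 308 on X (3.90%) and at 0 of 1532 on autosomes, which allows a share of up to 0.240% (95% exact interval). The genome holds it 33 times on X and 5 to 12 times on each autosome. The remaining 15 repeat peaks on X had signals of 201 or less.

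Repeated GA was not a feature of the arrays. GAGAGAGA, on either strand within 100 bp of the summit and chosen after the sequences were seen, was at 0 of 173 repeat peaks with 3 or more ATCGAT copies, at 4 of 115 with 1 or 2, and at 8 of 55 with none (14.5%). Among peaks outside repeats and promoters it was at 0 of 21, 34 of 192 (17.7%) and 24 of 225 (10.7%).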
